A study of Mus musculus with 8 samples.

Results

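Genes of the LIF-STAT3 pathway were followed in low-input RNA-Seq libraries of mouse embryonic stem (ES) cells. The 6 genes *Lifr*, *Il6st*, *Jak1*, *Stat3*, *Socs3* and *Pim1* were chosen by name and were all present among the 43309 genes of the count table. The choice was made with earlier results of these data known, so counts among the 6 beside those of all genes are descriptive. A gene was tested if any library gave it 10 counts or more, which left 16816 genes, the 6 included. The ES cells were of strain J1 (129SV) and grew on gelatin in serum medium with no feeder cells. Whether LIF was added to the medium was not given in the sources used here. Each library was made straight from lysed cells with the SMARTer Ultra Low kit, which copies polyadenylated RNA and amplifies the cDNA. The 8 libraries formed 4 groups of 2. Cells labelled wild type (WT) for *Zbtb24* carried a floxed and a wild-type allele (2lox/+), and cells labelled knockout (KO) carried a recombined allele on both chromosomes (1lox/1lox). Each genotype was sequenced from 1000 cells (about 10 ng of RNA, 10 cycles of PCR) and from 100 cells (about 1 ng, 18 cycles), so cell number and cycle number cannot be told apart. The replicates are described as clones of each genotype, but no label ties a clone to a library, so each error below is the spread between 2 libraries.

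LIF is a cytokine of the interleukin-6 family that keeps mouse ES cells undifferentiated in serum culture. It binds its receptor LIFR, which pairs with the shared signalling chain gp130 (*Il6st*). The kinase JAK1 on the receptor tails then phosphorylates STAT3, which dimerises, enters the nucleus and binds DNA at palindromic sites. *Socs3* and *Pim1* are classical STAT3 targets. SOCS3 binds gp130 and JAK and shuts the signal down, and PIM1 is a serine/threonine kinase that promotes survival and growth.

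The DNA element that STAT dimers recognise is TTCNNNGAA, which reads the same on both strands. Promoter sequences of all 6 genes were present in the RefSeq set (GRCm38.p6), and the 250 bases before each RefSeq start were searched. Only *Socs3* of the 6 held the element, 154 to 146 bases before its RefSeq start (chromosome 11, 117969366), against 7.02% of 32851 promoters searched. Of 59 other pathway genes described further on, 43 had a promoter in the set, and *Sgk1* and *Gab1* held the element. The *Socs3* and *Sgk1* windows are printed because these are the targets with the element, with the element in capitals. GENCODE lists a longer transcript of *Socs3* that starts further upstream, so the window lies in an intron of 1 of its 3 transcripts and before the start of the other 2. The match describes the letters only, and binding was not measured.
Socs3 (minus strand, chr11:117969502-117969530): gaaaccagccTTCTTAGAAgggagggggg
Sgk1 (plus strand, chr10:21881951-21881979): gaaaaaccaaTTCAAAGAAccctcccaag

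Library totals ranged from 9666985 to 16686525 counts, and the 10 ES cell markers were all detected in every group. *Zbtb24* itself had 244 and 201 counts in the libraries labelled WT and 526 and 545 in those labelled KO at 1000 cells, and 197 and 269 against 532 and 494 at 100 cells. The targeted gene was thus higher where the label says knockout, so directions below are those of the labels. A count over the whole gene does not show whether a part of the transcript was missing. The libraries labelled KO at 100 cells stood apart by brain transcripts. The summed level of 7 oligodendrocyte markers was 249.6 to 256.4 cpm (counts scaled to a common library size) there, and 44.7 to 52.2 cpm in the other 6 libraries, where *Cldn11* was at 0. *Mbp*, the myelin protein gene, had 1416 and 1360 counts there and 15 to 34 elsewhere, and *Snap25*, a synaptic gene, 1121 and 1021 against 17 to 44. Of the 10 neuronal markers, 9 were called higher and 1 lower in labelled KO at 100 cells, and 2 were higher and 1 lower at 1000 cells. The neuronal sum was 515.8 to 531.9 cpm there and 394.6 to 517.7 cpm elsewhere, but most of it was *Stmn2*. That gene had 341.9 and 369.8 cpm there and 375.3 to 492.5 cpm elsewhere. It was the only one of the 10 markers with lower levels in labelled KO than in labelled WT at 100 cells. Of 7 astrocyte markers 5 were called higher and 1 lower at 100 cells, with sums of 106.2 to 108.5 cpm against 60.5 to 167.6 cpm. *Gja1* alone had 105.3 to 132.3 cpm in labelled WT and 32.9 to 42.8 cpm in labelled KO. All 7 microglial markers were detected in labelled KO at 100 cells, with sums of 3.6 to 3.7 cpm against at most 0.5 cpm elsewhere. Over all tested genes 17.6% were called higher and 16.6% lower at 100 cells, and 20.9% and 20.6% at 1000 cells. The part of these transcripts in the results at 100 cells was not tested.

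The main question was whether the pathway genes differ between genotypes. At 1000 cells, 5 of the 6 genes were higher in labelled KO and none was lower, where 41.5% of all tested genes were called, 20.9% higher and 20.6% lower. The targets *Pim1* and *Socs3* rose by 1.93-fold and 1.60-fold. *Jak1*, *Il6st* and *Stat3* rose by 1.26-fold, 1.26-fold and 1.19-fold, and *Lifr* had a ratio of 0.974. At 100 cells, 3 of the 6 were called higher and none lower, against 34.2% of all tested genes called, 17.6% higher and 16.6% lower. These were *Socs3* (2.07-fold), *Jak1* (1.43-fold) and *Pim1* (1.42-fold), which were therefore called higher at both inputs. Across all tested genes 7.52% were called higher and 9.24% lower at both inputs. Both KO libraries lay above both WT libraries for 5 of the 6 genes at 1000 cells, as for 34.6% of all tested genes, and for 3 of the 6 at 100 cells, as for 38.1%. None of the 6 had both KO libraries below both WT libraries, which 34.7% and 32% of all tested genes had. The median log2 ratio of the 6 genes was 0.33 at 1000 cells and 0.28 at 100 cells, beside medians of -0.00089 and -0.0010 over all tested genes. A gene was called when its p from edgeR's quasi-likelihood test, adjusted over all tested genes by the method of Benjamini and Hochberg, did not exceed 0.05.

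**Figure D1:**
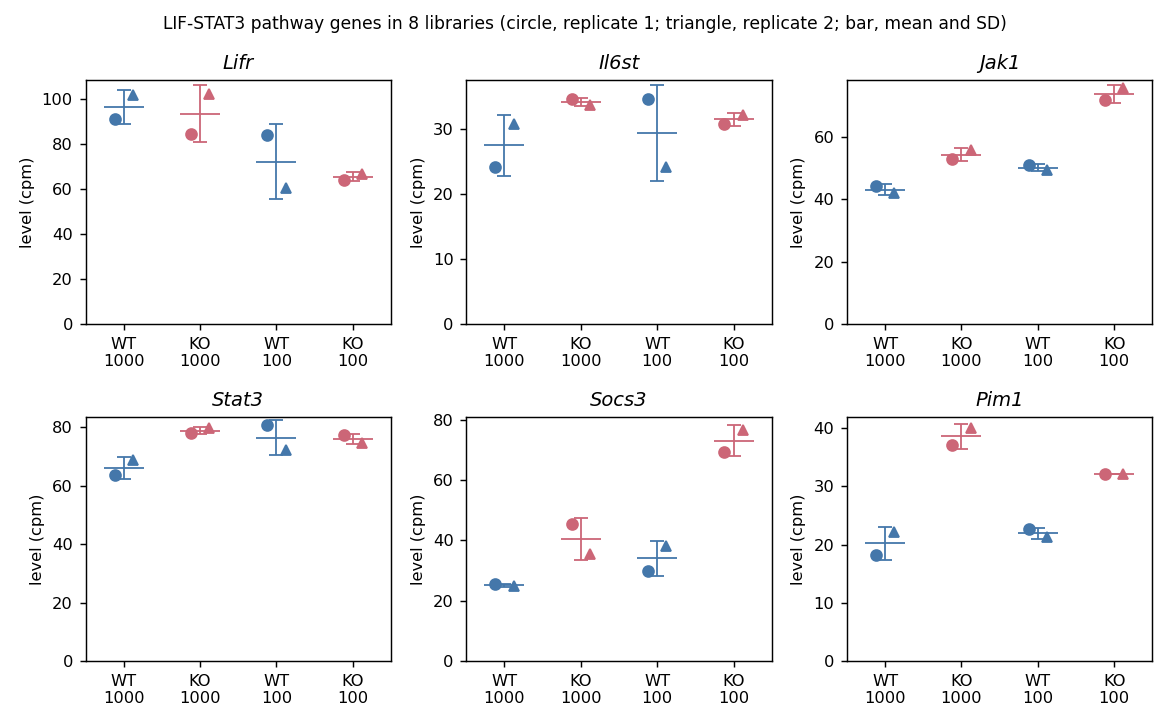
Level of each gene in cpm (vertical axes, from 0) in the 4 groups of libraries labelled WT or KO at 1000 or 100 cells, with replicate 1 as a circle, replicate 2 as a triangle, and bars for the mean and SD. All 4 labelled KO libraries lie above all 4 labelled WT libraries for *Jak1* and *Pim1*, and the highest *Socs3* level, 76.6 cpm, is in labelled KO at 100 cells.

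*Lifr* (ENSMUSG00000054263.7; GRCm38 chromosome 15, 7090614 to 7197489, plus strand) encodes the LIF-binding receptor chain. Its level, scaled to the TMM-adjusted library size, was 91.0 and 101.7 cpm in labelled WT at 1000 cells and 84.5 and 102.3 cpm in labelled KO. At 100 cells it was 84.0 and 60.4 cpm in labelled WT and 64.1 and 66.8 cpm in labelled KO. The genotypes overlapped at both inputs, and the libraries of 1000 cells were higher than those of 100 cells in labelled WT and in labelled KO. The KO/WT log2 ratio was -0.04 at 1000 cells (95% interval -0.21 to 0.13, edgeR adjusted p = 0.746) and -0.18 at 100 cells (-0.54 to 0.17, adjusted p = 0.395). These intervals leave room for changes of either sign, and the value at 100 cells turned on the libraries labelled WT. Without WT replicate 1 it was 0.08 (edgeR adjusted p = 0.413), and without WT replicate 2 it was -0.40 (adjusted p = 4.32e-05).

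*Il6st* (ENSMUSG00000021756.8; chromosome 13, 112464070 to 112510086, plus strand) encodes gp130, the chain that all receptors of the family share. It had 24.2 and 30.9 cpm in labelled WT and 34.7 and 33.8 cpm in labelled KO at 1000 cells. At 100 cells the levels were 34.7 and 24.2 cpm in labelled WT and 30.8 and 32.2 cpm in labelled KO. Both KO libraries were above both WT libraries at 1000 cells only, and the spread within labelled WT spanned both KO values at 100 cells. The log2 ratio was 0.33 ± 0.11 (SE) at 1000 cells (edgeR adjusted p = 0.0164) and 0.06 ± 0.18 at 100 cells (adjusted p = 0.825). At 1000 cells the call was lost in 5 of 14 alternatives. Without WT replicate 1 the ratio was 0.15 (edgeR adjusted p = 0.382) and with DESeq2 the adjusted p was 0.101. At 100 cells, *Il6st* was called higher without WT replicate 1 (0.34, edgeR adjusted p = 0.00406) and the ratio turned to -0.18 without WT replicate 2.

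*Jak1* (ENSMUSG00000028530.10; chromosome 4, 101152367 to 101265282, minus strand) encodes the receptor-bound tyrosine kinase. Its levels at 1000 cells were 44.3 and 41.8 cpm in labelled WT and 52.8 and 55.7 cpm in labelled KO. At 100 cells they were 50.9 and 49.3 cpm in labelled WT and 71.6 and 75.6 cpm in labelled KO. All 4 KO libraries exceeded all 4 WT libraries, as was the case for 14.1% of all tested genes. The log2 ratio was 0.33 ± 0.09 (SE) at 1000 cells (edgeR adjusted p = 0.00263) and 0.51 ± 0.11 at 100 cells (adjusted p = 0.00781). At 1000 cells the call held in all 14 alternatives, with log2 ratios from 0.24 to 0.38. That at 100 cells was lost when either KO library was left out, with log2 ratios of 0.55 without replicate 1 and 0.47 without replicate 2. The spread then comes from the labelled WT pair alone, the least alike replicates of the 4 groups.

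*Stat3* (ENSMUSG00000004040.12; chromosome 11, 100885098 to 100939540, minus strand) encodes the transcription factor at the end of the pathway. It had 63.6 and 68.8 cpm in labelled WT and 78.1 and 79.6 cpm in labelled KO at 1000 cells. At 100 cells the levels were 80.7 and 72.2 cpm in labelled WT and 77.2 and 74.7 cpm in labelled KO. It varied least of the 6 genes, with 1.27-fold between its highest and lowest library. The genotypes were apart at 1000 cells (log2 ratio 0.26 ± 0.08 SE, edgeR adjusted p = 0.00877) and overlapped at 100 cells (-0.05 ± 0.11, adjusted p = 0.752). The call at 1000 cells was lost without WT replicate 1 (edgeR adjusted p = 0.0997), without KO replicate 2 (0.0512), in 1 fit of all 8 libraries (0.0553) and with scaling by library size alone (0.082).

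*Socs3* (ENSMUSG00000053113.3; chromosome 11, 117966079 to 117970047, minus strand), the feedback inhibitor, had the widest range of the 6 genes. Its highest library had 76.6 cpm, 3.09-fold the level of the lowest. At 1000 cells it had 25.6 and 24.8 cpm in labelled WT and 45.4 and 35.6 cpm in labelled KO. At 100 cells it had 29.9 and 38.3 cpm in labelled WT and 69.3 and 76.6 cpm in labelled KO. Within each input both KO libraries were above both WT libraries, but the lower KO library of 1000 cells fell below the higher WT library of 100 cells. The log2 ratio was 0.68 ± 0.11 (SE) at 1000 cells (edgeR adjusted p = 8.42e-06) and 1.05 ± 0.14 at 100 cells (adjusted p = 0.000770). All 14 alternatives kept the call at each input, with log2 ratios of 0.50 to 0.85 at 1000 cells and 0.90 to 1.25 at 100 cells.

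*Pim1* (ENSMUSG00000024014.7; chromosome 17, 29490753 to 29496112, plus strand), the kinase target, separated the genotypes most clearly. Its levels at 1000 cells were 18.2 and 22.3 cpm in labelled WT and 37.1 and 40.1 cpm in labelled KO. At 100 cells they were 22.7 and 21.3 cpm in labelled WT and 32.2 and 32.1 cpm in labelled KO. The lowest KO library thus stood above the highest WT library of either input, by 32.1 to 22.7 cpm. The log2 ratio was 0.95 ± 0.11 (SE) at 1000 cells (edgeR adjusted p = 3.97e-08) and 0.51 ± 0.13 at 100 cells (adjusted p = 0.0173). At 1000 cells the call held in all 14 alternatives. That at 100 cells was lost when either KO library was left out. The spread then comes from the labelled WT pair alone, the least alike replicates of the 4 groups. With 1 library left out, the log2 ratio at 100 cells stayed between 0.47 and 0.56. The antisense gene *Gm26885* overlaps 14.5% of the exon bases of *Pim1*, and counting ignored the strand. *Gm26885* was assigned 1 to 10 counts per library, against 229 to 579 for *Pim1*. Fragments lying on both genes were discarded, so these counts do not show the signal in the shared bases.

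**Figure D2:**
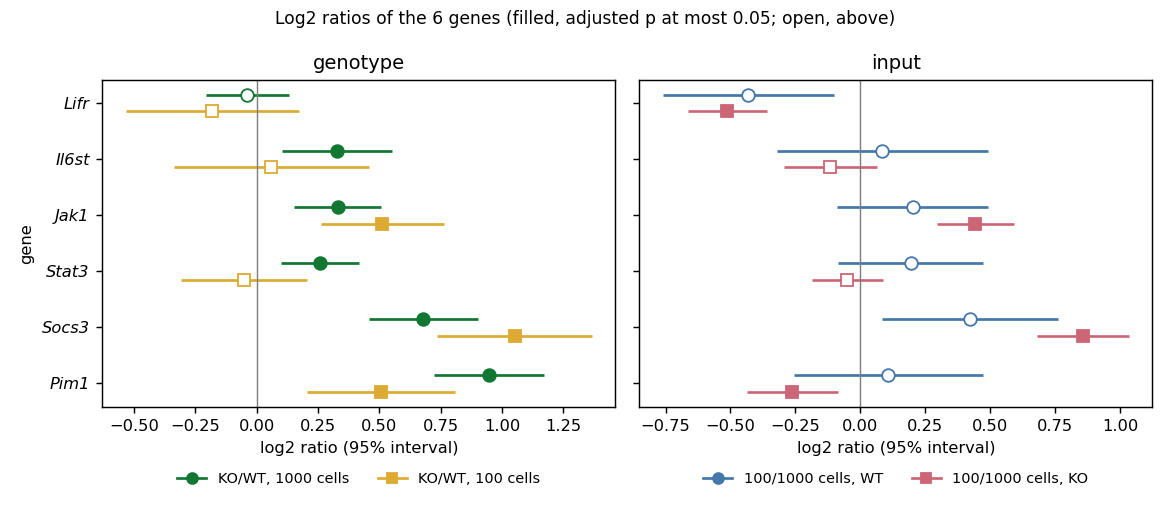
Log2 ratio of each gene with its 95% interval (horizontal axes), KO over WT at each input on the left and 100 over 1000 cells in each genotype on the right, with filled symbols for an adjusted p of at most 0.05. *Socs3*, *Jak1* and *Pim1* are to the right of 0 at both inputs on the left, and *Lifr* is to the left of 0 in both genotypes on the right.

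The position of each ratio among all genes was read next. Among the 8368 genes whose mean reached 10 cpm, 97.5% had a lower KO/WT ratio than *Pim1* at 1000 cells and 93.3% a lower one than *Socs3*. At 100 cells the shares were 87.1% for *Pim1* and 97.7% for *Socs3*. The other called genes were less far out. At 1000 and 100 cells the shares were 78.1% and 87.4% for *Jak1*, 77.8% and 59.3% for *Il6st*, and 72.5% and 49.3% for *Stat3*. *Lifr* lay in the middle, at 44.3% and 37.3%. The neighbours of each gene on its chromosome were examined too. The median log2 ratio of genes within 10 Mb was between -0.14 and 0.14 at 1000 cells and between -0.19 and 0.04 at 100 cells. Around *Pim1* it was -0.14 over 205 genes at 1000 cells, around *Socs3* it was -0.10 over 107 genes, and around *Jak1* 0.07 over 58 genes. The ratios of *Pim1* and *Socs3* had the opposite sign to the median of their neighbours at both inputs.

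A further question was whether the genotype difference itself changed with input. None of the 6 genes passed the interaction test (edgeR, all 8 libraries), where 16.3% of all tested genes did (9.28% with a positive and 7.05% with a negative interaction), and 1 of the 6, *Pim1*, had an unadjusted p below 0.05. The log2 ratio of *Pim1* was 0.39 smaller at 100 than at 1000 cells (interaction -0.39 ± 0.18 SE, edgeR adjusted p = 0.143). That of *Socs3* was larger at 100 cells (0.41 ± 0.19, adjusted p = 0.159). *Stat3* had -0.26 ± 0.14 (adjusted p = 0.197) and *Jak1* 0.22 ± 0.14 (adjusted p = 0.277), and *Il6st* and *Lifr* had -0.22 and -0.09. A genotype difference called at 1 input and missed at the other, as for *Il6st* and *Stat3*, was therefore not shown to differ between inputs. How many of the 6 genes passed depended on which library was left out. A group left with a lone library takes its spread from the other groups, so such fits do not isolate the effect of 1 library. With 1 library left out, the interaction of *Socs3* ranged from 0.24 to 0.61 and that of *Pim1* from -0.53 to -0.24.

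The ratio of 100 over 1000 cells was then compared within each genotype. In labelled KO, 4 of the 6 genes differed, 2 higher and 2 lower at 100 cells, where 52.1% of all tested genes were called, 27.3% higher and 24.8% lower. *Socs3* was 1.81-fold higher at 100 cells (log2 ratio 0.86 ± 0.09 SE, edgeR adjusted p = 4.72e-10) and *Jak1* 1.36-fold higher (0.44 ± 0.07, adjusted p = 4.41e-06). *Lifr* was lower (-0.51 ± 0.07, adjusted p = 6.60e-07), as was *Pim1* (-0.26 ± 0.09, adjusted p = 0.0110). The last call was lost in 6 of 14 alternatives, DESeq2 among them (adjusted p = 0.109). *Stat3* and *Il6st* had log2 ratios of -0.05 and -0.12. The KO libraries of 100 cells are those that carried the brain transcripts.

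In labelled WT none of the 6 genes passed at the same comparison (edgeR), and 0.827% of all tested genes did (0.149% higher and 0.678% lower). Unadjusted p was below 0.05 for *Lifr* and *Socs3*, and DESeq2 called 0 of the 6. *Lifr* had a log2 ratio of -0.43 (95% interval -0.76 to -0.10, edgeR adjusted p = 0.246), and *Socs3* 0.42 (0.08 to 0.76, adjusted p = 0.273). Both values had the sign seen in labelled KO. Without replicate 1 of labelled WT at 100 cells both passed, at -0.71 (edgeR adjusted p = 4.08e-10) and 0.57 (adjusted p = 0.000213), and without its replicate 2 *Il6st* (0.36, adjusted p = 0.0461) and *Stat3* (0.30, adjusted p = 0.028) passed instead. Over all tested genes 2631 and 2601 passed in these fits, in place of 139. Replicates of this group differed most, with a chi-square per degree of freedom of 17.6, against 1.99 to 3.28 in the other 3 groups. In bulk libraries a change in the number of cells that express a gene and a change in RNA per cell cannot be told apart.

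Levels were compared between genes per kilobase of the longest annotated transcript, since longer transcripts collect more fragments. The authors reported coverage biased toward the 3′ end in SMARTer libraries, so division by a full length may understate long transcripts. In labelled WT at 1000 cells, *Stat3* was at 10.9 ± 0.616 cpm/kb (SD, n = 2), followed by *Lifr* at 9.98 ± 0.785 and *Socs3* at 9.87 ± 0.219. The libraries of *Lifr* overlapped those of *Stat3* and of *Socs3*, while both *Stat3* values were above both *Socs3* values. *Jak1* followed at 8.78 ± 0.364 cpm/kb, *Pim1* at 7.49 ± 1.07 and *Il6st* at 3.17 ± 0.542, each apart from its neighbours. The shared chain gp130 was the lowest of the 6 genes in all 4 groups, at 3.17 to 3.94 cpm/kb. The order of the others depended on the length used. Per kilobase of all annotated exons, *Lifr* led in labelled WT at 1000 cells with 8.94 cpm/kb, before *Socs3* with 8.71 and *Stat3* with 6.95. By that length *Lifr* (8.67 cpm/kb) also passed *Stat3* (8.28) and *Jak1* (7.51) in labelled KO at 1000 cells, and *Pim1* (9.56) passed *Stat3* (7.98) in labelled KO at 100 cells. *Il6st* remained lowest in all 4 groups, and *Socs3* remained highest in both groups labelled KO and in labelled WT at 100 cells. The orders and ratios that follow are per kilobase of the longest transcript. The change of a ratio between groups does not depend on the length.

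In labelled KO at 1000 cells the targets led, with *Socs3* at 15.9 ± 2.71 cpm/kb and *Pim1* at 14.3 ± 0.791. Both overlapped in their libraries, and *Stat3*, *Jak1*, *Lifr* and *Il6st* followed in this order with no overlap between neighbours. In labelled WT at 100 cells *Socs3* (13.3 ± 2.32 cpm/kb) and *Stat3* (12.7 ± 0.993) overlapped at the top, and *Pim1* (8.14 ± 0.359) overlapped *Lifr* (7.47 ± 1.73). In labelled KO at 100 cells *Socs3* stood alone at 28.6 ± 2.02 cpm/kb. *Jak1* followed at 15.01 ± 0.577, and no neighbours in the order overlapped. The level of *Socs3* relative to *Stat3* per kilobase was 0.903 ± 0.0708 in labelled WT and 1.22 ± 0.225 in labelled KO at 1000 cells, and 1.07 ± 0.267 and 2.28 ± 0.214 at 100 cells. The level of *Pim1* relative to *Stat3* was 0.682 ± 0.0593 and 1.10 ± 0.0457 at 1000 cells, and 0.644 ± 0.0222 and 0.947 ± 0.0211 at 100 cells. Within each input both ratios were higher in both labelled KO libraries than in both labelled WT libraries. So were the levels of *Socs3* and *Pim1* themselves, as for 34.6% of all tested genes at 1000 cells and 38.1% at 100 cells. *Stat3* varied only 1.27-fold over the libraries, so the ratios largely repeat those levels and are not separate evidence. The level of *Lifr* relative to *Il6st* was 3.17 ± 0.295 and 2.46 ± 0.374 in labelled WT and KO at 1000 cells, and 2.21 ± 0.0467 and 1.87 ± 0.00304 at 100 cells.

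**Figure D3:**
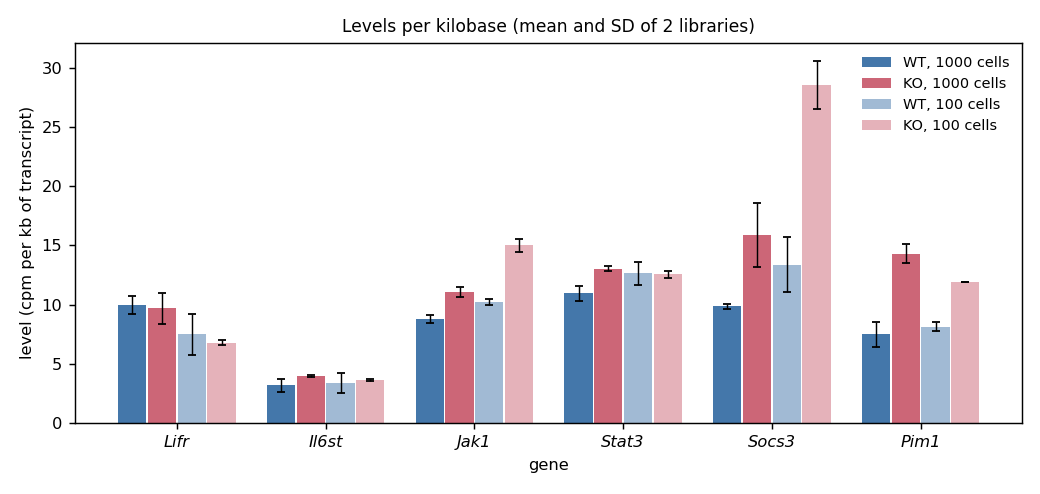
Level in cpm per kilobase of the longest transcript (vertical axis, from 0) for the 6 genes in the 4 groups, as mean and SD of 2 libraries labelled WT (blue) or KO (red) at 1000 cells (dark) or 100 cells (pale). *Il6st* is lowest throughout at 3.17 to 3.94 cpm/kb, and *Socs3* reaches 28.6 cpm/kb in labelled KO at 100 cells.

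The other genes of the pathway were read from 6 lists with 59 genes. For comparison, 20.9% of all tested genes were called higher and 20.6% lower at 1000 cells, and 17.6% and 16.6% at 100 cells. Of 7 ligands of the LIF family, 4 were tested and the remainder stayed below 10 counts in every library. *Lif* itself was at the limit of detection, with 12 and 4 counts in labelled WT and 8 and 4 in labelled KO at 1000 cells, and 24 and 8 against 1 and 3 at 100 cells. *Osm*, the ligand oncostatin M, had 33, 22, 26 and 25 counts in the labelled WT libraries and 4, 2, 6 and 2 in the labelled KO libraries. It was called lower at both inputs (edgeR adjusted p = 6.48e-05 and 0.00583), and *Lif* was called lower at 100 cells (adjusted p = 0.0257). Of 4 other receptors of the family, none was called at 1000 cells (edgeR), and 2 were called higher at 100 cells, *Cntfr* and *Il11ra1*, with at most 62 counts in any library.

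Of 9 other JAK kinases and STAT factors, 1 was higher and 2 were lower at 1000 cells, and 1 was higher and 1 lower at 100 cells. *Stat4*, a STAT factor of lymphocyte signalling, rose from 7.35 to 13.8 cpm at 1000 cells (log2 ratio 0.89, edgeR adjusted p = 4.01e-05) and from 6.68 to 12.4 cpm at 100 cells (0.84, adjusted p = 0.0127). *Tyk2*, a JAK kinase, fell from 14.7 to 9.54 cpm (-0.63, adjusted p = 0.000764) and from 20.4 to 12.9 cpm (-0.70, adjusted p = 0.0139). At 100 cells both calls were lost when either KO library was left out and the spread came from the WT pair alone. That of *Stat4* was also lost after thinning to the smallest total. Of 14 inhibitors of the pathway other than *Socs3*, 2 were higher and 2 lower at 1000 cells, and 1 was lower at 100 cells. The remaining 10 and 13 were not called. Over all tested genes the shares were 20.9% higher and 20.6% lower at 1000 cells, and 17.6% and 16.6% at 100 cells.

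*Socs2*, a relative of *Socs3* best known for damping growth hormone signals, moved the opposite way to *Socs3*. It had 89.7 and 94.3 cpm in labelled WT and 56.4 and 68.3 cpm in labelled KO at 1000 cells, and 100.5 and 84.1 against 49.6 and 50.3 cpm at 100 cells. All KO libraries were below all WT libraries, as in 13.9% of all tested genes. Its log2 ratio was -0.56 (edgeR adjusted p = 3.25e-06) and -0.93 (adjusted p = 0.000818). *Ptpn1*, a phosphatase of JAK kinases, was lower at 1000 cells (-0.62, adjusted p = 1.02e-05) and had 0.43 at 100 cells (adjusted p = 0.0688). At 100 cells it was called higher in 5 of 14 alternatives, among them without WT replicate 1 (0.21) and without WT replicate 2 (0.72, edgeR adjusted p = 5.05e-08). *Pias1* and *Pias2*, which bind STAT proteins, were higher at 1000 cells (0.33 and 0.15, adjusted p = 0.00118 and 0.0438), and the call of *Pias2* was lost in 9 of 14 alternatives.

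**Figure D4:**
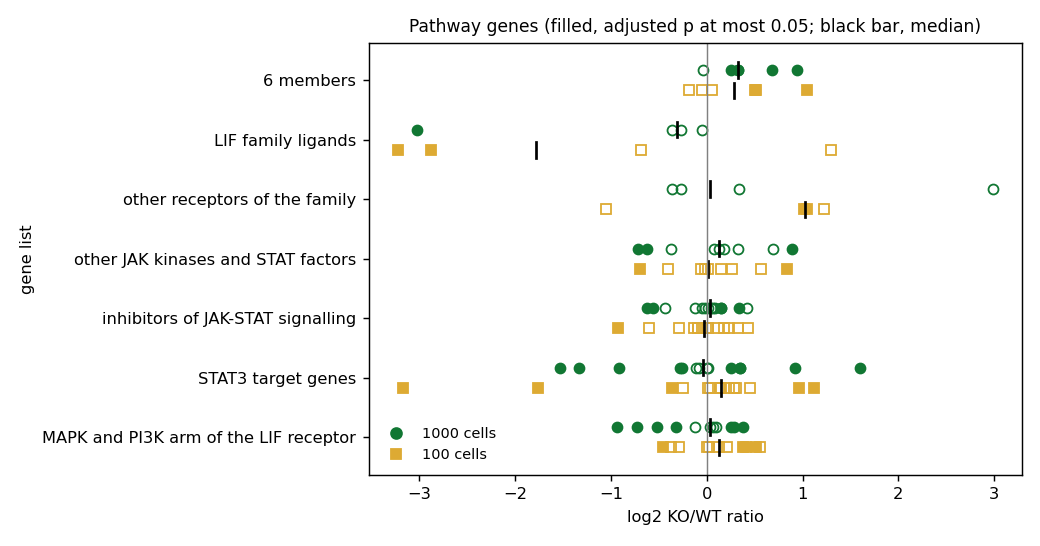
Log2 KO/WT ratio (horizontal axis) of every tested gene of the 6 followed genes and of 6 other pathway lists, at 1000 cells (green circles) and 100 cells (yellow squares), filled at an adjusted p of at most 0.05, with a black bar at the median of each list. The medians of the 6 genes are 0.33 and 0.28, and the 14 other STAT3 target genes spread to both sides of 0.

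Of 14 further STAT3 target genes, 5 were higher and 5 lower at 1000 cells, and 2 were higher and 3 lower at 100 cells. Among all tested genes 20.9% were higher and 20.6% lower at 1000 cells, and 17.6% and 16.6% at 100 cells. The median log2 ratio of the list was -0.04 and 0.15. *Klf4*, a transcription factor of the undifferentiated state, rose from 61.9 to 186.6 cpm at 1000 cells and from 67.6 to 151.3 cpm at 100 cells (edgeR adjusted p = 9.46e-17 and 0.000487). *Tfcp2l1*, another such factor, rose from 85.4 to 160.9 cpm at 1000 cells (log2 ratio 0.92, edgeR adjusted p = 7.64e-11) and had 90.02 and 108.6 cpm at 100 cells (0.23, adjusted p = 0.261). Without WT replicate 1 of 100 cells its ratio there was 0.48 (edgeR adjusted p = 4.02e-07), and without WT replicate 2 it was 0.028. *Myc*, the growth regulator, moved the other way, from 44.7 to 15.5 cpm (-1.53, adjusted p = 1.22e-12) and from 46.5 to 14.1 cpm (-1.76, adjusted p = 5.03e-05). The survival gene *Mcl1* was lower at both inputs (-0.28 and -0.37, edgeR adjusted p = 0.000532 and 0.0214), and its relative *Bcl2l1* was lower at 1000 cells (-0.92, adjusted p = 5.53e-06) with 0.30 at 100 cells (adjusted p = 0.140), where it was called higher without WT replicate 2 (0.35, adjusted p = 0.0248). *Sgk1*, whose promoter held the STAT element, had 0.34 at 1000 cells (edgeR adjusted p = 1.60e-05) and -0.25 at 100 cells (adjusted p = 0.109). STAT3 targets thus included genes that rose, fell or were not called.

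Of 11 genes of the MAPK and PI3K arm, which the LIF receptor also feeds, 3 were higher and 4 lower at 1000 cells, and 3 were higher and 1 lower at 100 cells. *Ptpn11* encodes SHP2, the phosphatase that binds the same gp130 tyrosine as SOCS3. Its levels were 50.7 and 51.2 cpm in labelled WT and 28.9 and 32.3 cpm in labelled KO at 1000 cells, and 36.8 and 35.5 against 27.5 and 27.0 cpm at 100 cells. It was lower in labelled KO at both inputs (log2 ratio -0.73, edgeR adjusted p = 1.99e-07, and -0.45, adjusted p = 0.0218). *Map2k1*, the kinase MEK1, was higher at both (0.38, adjusted p = 6.48e-05, and 0.41, adjusted p = 0.0228). *Akt1*, the survival kinase, and *Grb2*, an adaptor, were lower at 1000 cells (-0.52 and -0.32, edgeR adjusted p = 0.000849 and 0.00387) and higher at 100 cells (0.51 and 0.38, adjusted p = 0.0151 and 0.0307). At 100 cells the calls of these 4 genes and of *Mcl1* were lost when either KO library was left out. The spread then came from the WT pair alone. The calls of *Ptpn11* and *Grb2* were also lost with DESeq2, and those of *Map2k1* and *Mcl1* with the filter of 1 count in any library. *Sos1*, the exchange factor that GRB2 carries, had 0.29 at 1000 cells (edgeR adjusted p = 0.0168), a call lost in 5 of 14 alternatives.

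Genes with the most alike pattern were found by the root mean square difference of log2(cpm + 1), each gene centred on its own mean, over the 8 libraries, against the 8367 other genes whose mean reached 10 cpm. *Socs3* was nearest to *Lefty1* (0.071), *Lrrc41* (0.095) and *Ttc7b* (0.11), against a median difference of 0.59 to all genes. *Pim1* was nearest to *Gpr137b*, *Angel2* and *Cab39* (0.070 to 0.074), and *Jak1* to *Sec23b*, *Mcm4* and *Sf3b3* (0.038 to 0.064). *Lifr* was nearest to *9930021J03Rik*, *Cdk12* and *Mysm1* (0.058 to 0.080), *Il6st* to *Zfp704*, *Mettl26* and *Twsg1* (0.070 to 0.074), and *Stat3* to *Scnm1*, *Anapc4* and *Smndc1* (0.042 to 0.049). None of the 6 genes was among the 3 nearest of another. Between the 6, *Il6st* and *Stat3* were closest (0.13) and *Lifr* and *Socs3* farthest apart (0.78). Around their own means *Il6st* and *Stat3* had a root mean square of only 0.19 and 0.11. A gene that did not vary would thus be as near to *Stat3*, and the closeness does not show a shared pattern. The genes share libraries and depth, so these values are descriptive.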

How the data were processed

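Ribosomal reads were filtered out by the authors (Bowtie2 2.1.0), who mapped the remainder to mm10 with TopHat 2.0.10 and deposited raw fragment counts per GENCODE M4 gene from htseq-count (HTSeq 0.6.1, union mode, strand ignored, fragments on several genes or positions discarded). Removal of PCR duplicates was not stated. Titles were matched to columns, and no column was left unused. Identifiers were matched without version number to GENCODE M21 (97.96% found), which also gave positions and lengths.

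Counts were tested with edgeR 4.0.16 (R 4.3.3) with TMM scaling, a trimmed mean of log ratios, on the 4 libraries of each input or genotype, and on all 8 for the interaction. Tests were two-sided. The SE was the log2 ratio divided by the root of F. Levels are TMM-scaled cpm. Alternatives used DESeq2 1.42.0, limma-voom (limma 3.58.1), other scalings and filters, thinning, a replicate block and each library left out. In the last, a lone library is assumed to vary like the others. The procedure was tested on simulated data.

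The genes and lists were chosen with earlier results of these data known. Named were the 6 genes, *Zbtb24*, *Lif*, up to 5 genes per list by size of ratio among those called with at least 10 cpm, and the 3 most alike genes of each. *Osm*, *Cntfr*, *Il11ra1*, *Sgk1*, *Gab1*, *Cebpb*, *Pik3r1*, *Gm26885*, *Mbp*, *Snap25*, *Stmn2* and *Gja1* were named after their values were seen. Intervals cover the spread between libraries, and reads amplified by PCR carry no molecular identifiers, so they are not independent.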

Additional observations from a re-analysis of the deposited data

Results flagged for a closer look

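For 9 of the 59 other pathway genes listed, the KO/WT log2 ratio differed between inputs by the interaction test (edgeR quasi-likelihood, Benjamini-Hochberg adjusted over all tested genes). This was close to the share among all tested genes, 16.3%, so such differences were not more frequent in these lists. The ratio at 100 cells exceeded that at 1000 cells by 1.55 for *Pik3r1* (adjusted p = 0.00414), by 1.33 for *Il11ra1* (adjusted p = 0.0459), by 1.26 for *Bcl2l1* (adjusted p = 0.00196), by 1.09 for *Ptpn1* (adjusted p = 0.00366), by 1.07 for *Akt1* (adjusted p = 0.00227), by 0.99 for *Cebpb* (adjusted p = 0.0336) and by 0.75 for *Grb2* (adjusted p = 0.00403). It was lower at 100 cells for *Tfcp2l1* (-0.64, adjusted p = 0.0265) and *Sgk1* (-0.55, adjusted p = 0.0103). Groups of 2 libraries are too small to search for a library far from the others. The libraries labelled KO at 100 cells, which enter each of these differences, also carried the brain transcripts, whose part was not tested.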

How the results depend on the processing

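Of the 14 alternatives to each KO/WT comparison, all kept *Jak1*, *Socs3* and *Pim1* called at 1000 cells and *Socs3* called at 100 cells. The number of the 6 genes called at 1000 cells was 3 in place of 5 with library size alone and 3 in 1 fit of all 8 libraries, and 3 to 5 with 1 library left out. With 1 library left out it was 1 to 4 at 100 cells, 0 to 2 for input in labelled WT, 3 to 4 for input in labelled KO, and 0 to 5 for the interaction, where 5 came without WT replicate 2 of 100 cells. *Stat3* at 100 cells became 0.0054 after thinning. *Pias1* at 100 cells (-0.0052) became 0.0015 with DESeq2 size factors, 0.0013 with DESeq2, 0.016 and 0.021 with filters of 1 count in any or 10 counts in every library, and 0.040 in 1 fit. With 1 library left out, the KO/WT ratio ranged from -0.18 to 0.096 for *Lifr* at 1000 cells, and at 100 cells from -0.40 to 0.082 for *Lifr*, -0.18 to 0.34 for *Il6st*, -0.12 to 0.039 for *Stat3* and -0.056 to 0.062 for *Pias1*. The input ratio in labelled WT ranged from -0.21 to 0.36 for *Il6st* and -0.036 to 0.27 for *Pim1*, and the interaction from -0.32 to 0.15 for *Lifr* and -0.47 to 0.050 for *Il6st*. The cause of these changes was not tested.

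Among all tested genes, 5756 were called at 100 cells (2066 to 9551 with 1 library left out) and 2745 in the interaction (727 to 5633). For input in labelled KO, DESeq2 called 5641 in place of 8753. For input in labelled WT, 139 were called, 79 with library size alone, 212 with DESeq2, 434 with the exact test of edgeR, 463 with the filter of 1 count, 676 in 1 fit, 2 after thinning and 6 to 2631 with 1 library left out. With library size alone, 39.3% of the calls at 1000 cells were higher, and the median of all genes moved to -0.086.

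Replicate numbers were not taken to pair the libraries, since no label says so. The log2 difference between replicates 1 and 2 was taken per gene in each group, over 8368 genes. Its correlation between the 2 groups of a comparison was -0.13 to 0.17. With the replicate number as a block, 1000 cells gave 5 calls among the 6 genes and 100 cells gave 3, as without it, and no call of the 6 genes changed. The block raised the count for input in labelled WT to 285 genes and brought *Ptpn1* past the threshold at 100 cells (0.45, adjusted p = 0.0078), as the exact test, 1 fit of all 8 libraries and leaving out either WT library of 100 cells did. A crossed pairing, added after the data were seen, called 1 of the 6 genes and 512 of all genes for input in labelled WT. In simulated data for 1000 cells, 98% of genes changed by a log2 ratio of 1 and 32% of those changed by 0.5 were recovered. The simulation gave all genes the same assumed spread and changed few of them. These shares are therefore not the power of the tests on the real data, where *Jak1* was called at 0.33. A gene not called with 2 libraries a group may still differ.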
